A study of Mus musculus with 10 samples.

Results

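Genes of the synaptic vesicle and of the SNARE fusion machinery were described in embryonic mouse forebrain under a pair of maternal diets. The 64 genes were taken by their symbol in the platform annotation, as every probe set whose symbol was Syt, Vamp, Stx, Stxbp or Syngr followed by a digit, together with Snap23, Snap25, Snap29, Snap47, Snap91, Syn1 to Syn3, Sv2a to Sv2c, Syp, Rab3a to Rab3d and Nsf. They made up 64 of the 21225 probe sets on the array, each probe set standing for 1 Entrez gene. The rule used symbols and no measured value, but it was set with earlier results of these data known. Vamp7 was not analysed here.

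Forebrains were collected at embryonic day 15.5 from C57Bl/6J dams that had been mated with Ts1Cje males, and all 10 embryos measured here were wild type, so that no group carried the Ts1Cje segment. A group of 5 embryos came from dams fed pelleted chow (Teklad 2918), and the other 5 came from dams fed powdered chow (Bioserv F3197), a purified diet. Dams received their chow from breeding onward, the sires ate the same chow as the dams, and each embryo came from a different litter. RNA of each forebrain was hybridized to 1 Affymetrix Mouse Gene 1.0 ST array, and the values are log2 signals after robust multichip averaging. Each array is named here by its diet and its animal number (pelleted 05, 07, 09, 11 and 15, and powdered 87, 88, 108, 111 and 115).

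A synaptic vesicle fuses when its SNARE protein, synaptobrevin (VAMP), zips into a helical bundle with syntaxin and SNAP-25 on the plasma membrane. Calcium binding to synaptotagmin triggers that step, Munc18 proteins (Stxbp genes) chaperone the syntaxins, and the ATPase NSF takes the spent bundle apart. In the embryonic forebrain the same families also serve the insertion of membrane into growing axons and the traffic between inner membranes in every cell type.

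Upstream sequence is shown for 5 members that stand for the directions found below, with 3 that were lower on powdered chow (Sv2a, Syngr1 and Syn1) and 2 that were higher (Stx4a and Stxbp3). Each is the 250 bases before a RefSeq start on build GRCm38.p6, written 5′ to 3′ on the strand of the gene. For Stx4a this start lies inside the span that RefSeq gives for the gene, so its sequence precedes an inner start. Capitals mark TGACGTCA (the cAMP response element), GGGCGG (the GC box) and TTCAGCACC (the left arm of the RE1 silencer element), each on either strand. Sv2a lies at chr3:96180977-96181226 on the plus strand, Syngr1 at chr15:80091084-80091333 on the plus strand, Syn1 at chrX:20920919-20921168 on the minus strand, Stx4a at chr7:127841558-127841807 on the plus strand and Stxbp3 at chr3:108840503-108840752 on the minus strand.
Sv2a: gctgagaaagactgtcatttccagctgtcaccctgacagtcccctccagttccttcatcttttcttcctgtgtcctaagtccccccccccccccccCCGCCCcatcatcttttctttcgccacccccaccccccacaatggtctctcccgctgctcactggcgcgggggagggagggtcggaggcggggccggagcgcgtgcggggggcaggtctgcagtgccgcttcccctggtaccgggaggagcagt
Syngr1: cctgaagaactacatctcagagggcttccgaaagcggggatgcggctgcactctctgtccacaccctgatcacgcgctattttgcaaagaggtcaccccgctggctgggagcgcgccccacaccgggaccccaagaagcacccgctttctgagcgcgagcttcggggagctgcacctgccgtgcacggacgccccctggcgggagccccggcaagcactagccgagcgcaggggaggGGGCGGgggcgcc
Syn1: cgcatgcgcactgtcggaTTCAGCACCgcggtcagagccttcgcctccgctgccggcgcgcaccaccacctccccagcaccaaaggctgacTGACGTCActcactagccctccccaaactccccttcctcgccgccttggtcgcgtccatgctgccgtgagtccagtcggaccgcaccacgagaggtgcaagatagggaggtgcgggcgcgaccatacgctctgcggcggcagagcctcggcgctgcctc
Stx4a: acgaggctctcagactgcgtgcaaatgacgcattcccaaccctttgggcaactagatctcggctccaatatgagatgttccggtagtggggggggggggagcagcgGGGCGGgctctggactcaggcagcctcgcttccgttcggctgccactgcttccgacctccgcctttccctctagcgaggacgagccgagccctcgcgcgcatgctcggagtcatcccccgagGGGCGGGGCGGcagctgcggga
Stxbp3: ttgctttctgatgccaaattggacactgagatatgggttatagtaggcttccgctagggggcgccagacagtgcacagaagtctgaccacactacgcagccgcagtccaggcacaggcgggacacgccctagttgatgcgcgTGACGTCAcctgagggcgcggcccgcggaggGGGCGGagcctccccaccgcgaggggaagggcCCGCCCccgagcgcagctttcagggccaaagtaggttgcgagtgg

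A RefSeq upstream sequence was found for 52 of the 64 members. The GC box stood in 38 of these 52 (73.1%) and in 35.4% of the upstream sequences of all 27025 genes. It was found in 6 of the 7 members with a sequence that were higher on powdered chow, in 16 of the 23 that were lower and in 16 of the 22 that were not called, so it was common in each of these groups. The Stx4a sequence held 3 GC boxes, of which 2 overlapped, and the Syngr1 and Sv2a sequences held 1 each. The cAMP response element was found in 2 members, Syn1 (lower) and Stxbp3 (higher), against 1.77% of all genes. The left arm of the RE1 element stood in Syn1 alone, against 0.348% of all genes. The CCAAT box (CCAAT) was in 17 of the 52 members, against 37.5% of all genes, and the TATA box (TATAAA) was in 4, against 14.3%. These matches describe letters in the sequence and were not tested against the diets.

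Arrays within a diet were alike, with a lowest pairwise correlation of 0.989 for pelleted chow and 0.991 for powdered chow across probe sets. The dam's diet went with changes in much of the transcriptome. In limma, with p-values adjusted by Benjamini-Hochberg across the 21225 probe sets, 21.2% were higher and 21.8% were lower on powdered chow at an adjusted p under 0.05, which is 43.1% in all, and the median difference over all probe sets was -0.02 on the log2 scale. Markers of forebrain were present, since all 5 forebrain transcription factors listed (Emx1, Emx2, Dlx1, Dlx2 and Lhx2) and all 12 neuronal markers lay above the median brightness. The labels give no sex, slide or scan date, and the animal numbers of the diets do not overlap, so that diet and any difference in when the animals were handled cannot be told apart.

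Vamp2, all 3 SV2 genes, Syngr1, Rab3a and Rab3b were among the genes lower in forebrains exposed to powdered chow. Of the 64 members, 28 were downregulated (43.8%, against 21.8% of all probe sets) and 8 were upregulated (12.5%, against 21.2%), and 28 did not pass the test. The median member differed by -0.10 on the log2 scale. The 28 were spread over synaptotagmins, VAMPs, SNAP47, syntaxin-binding proteins, NSF, vesicle membrane proteins, a synapsin, Rab3 GTPases and Snap91. None was a syntaxin in this fit, although Stx8 was called lower in 8 of 19 alternative settings, the methods' t-test among them, and Stx5a in 2. The upregulated count was 5 without pelleted 15, when Stx1a, Stx2 and Stx7 no longer passed. At stricter limits (raw p under 0.001, adjusted p under 0.01 and a change above 1.5-fold), 7 members were downregulated and 1 was upregulated, against 3.43% and 4.84% of all probe sets, or 8.27% in all. The 7 were Vamp1, Vamp2, Syngr1, Sv2a, Sv2b, Syt13 and Rab3b, and the 1 was Stx4a. Vamp1, at 1.53-fold, was near the limit, and changed by less than 1.5-fold without pelleted 15 (log2 difference -0.563) or powdered 111 (-0.578). For 28 members the 5 arrays of one diet did not overlap with the 5 of the other, as was so for 32.6% of all probe sets.

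**Figure D1:**
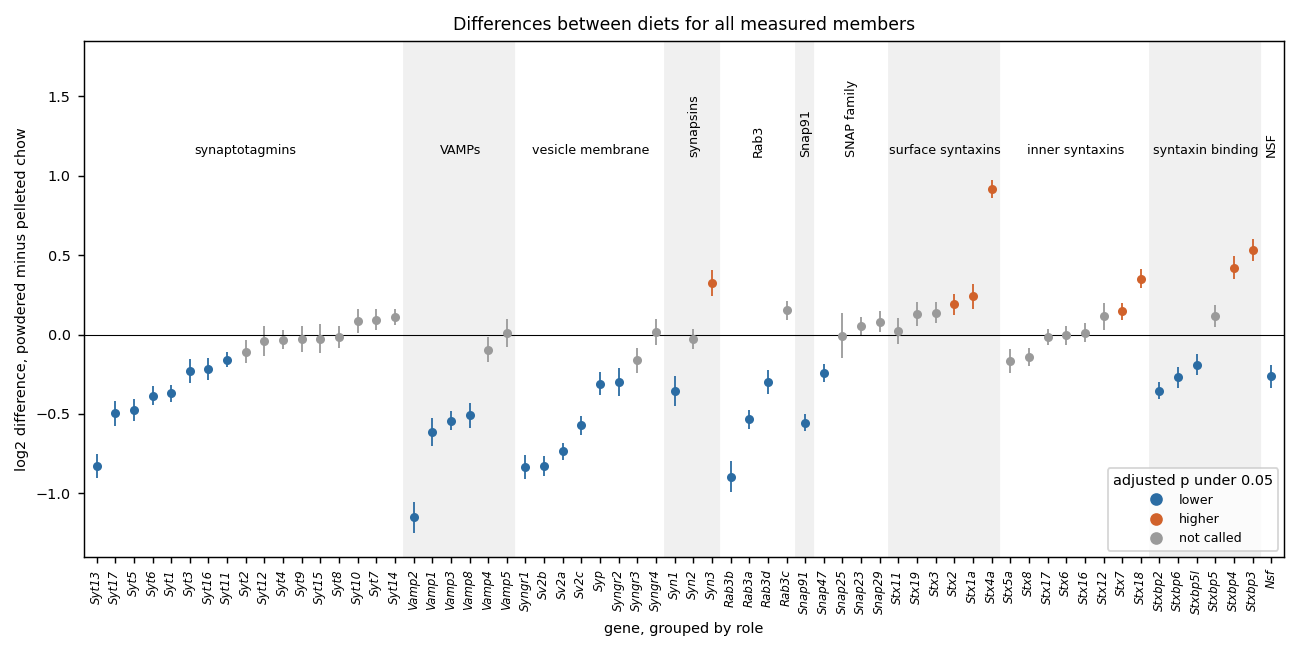
Differences between diets for the 64 members, grouped by role along the x axis. The y axis is the log2 difference, powdered minus pelleted chow, with 1 point per gene, its SE as a bar and colours for lower, higher and not called at an adjusted p under 0.05; VAMPs, vesicle membrane proteins and Rab3 GTPases lie mostly below 0, with Vamp2 lowest at -1.15, whereas the called syntaxins all lie above it, with Stx4a highest at 0.92.

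Among the vesicle SNAREs, 4 of 6 VAMP genes were downregulated (66.7%, against 21.8% of all probe sets) and none was upregulated (against 21.2%). Their median difference was -0.53. Vamp2 encodes synaptobrevin 2, the main vesicle SNARE of forebrain synapses. Its log2 signal was 11.67, 11.89, 11.86, 12.08 and 11.89 in pelleted 05, 07, 09, 11 and 15, and 10.89, 10.89, 10.81, 10.44 and 10.60 in powdered 87, 88, 108, 111 and 115. Every powdered array lay below every pelleted array, and powdered 111 was the lowest. Vamp2 fell by 1.15 on the log2 scale (SE 0.10), a 2.22-fold decrease and the largest change of any member (limma adjusted p = 1.03e-06). In bulk tissue, fewer cells of a type and less RNA per cell cannot be told apart, here and in all that follows.

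Vamp1, a close relative used mainly by fast neurons of brainstem and spinal cord in the adult, gave 7.97, 8.09, 8.31, 8.31 and 8.42 on pelleted chow and 7.64, 7.55, 7.77, 7.46 and 7.60 on powdered chow. The diets did not overlap, and Vamp1 fell by 0.61 (SE 0.09, limma adjusted p = 8.16e-05). Vamp3 (cellubrevin), which returns recycling endosomes to the surface in many cell types, gave 9.49 to 9.70 on pelleted chow and 8.94 to 9.13 on powdered chow, and fell by 0.54 (limma adjusted p = 1.02e-05). Vamp8, a SNARE of late endosomes, gave 7.25 to 7.65 and 6.84 to 7.14, a fall of 0.51 (limma adjusted p = 1.58e-04). The change was therefore not confined to the neuronal VAMPs. Vamp4, a SNARE of the trans-Golgi network, and Vamp5 were not called, with differences of -0.09 and 0.01.

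**Figure D2:**
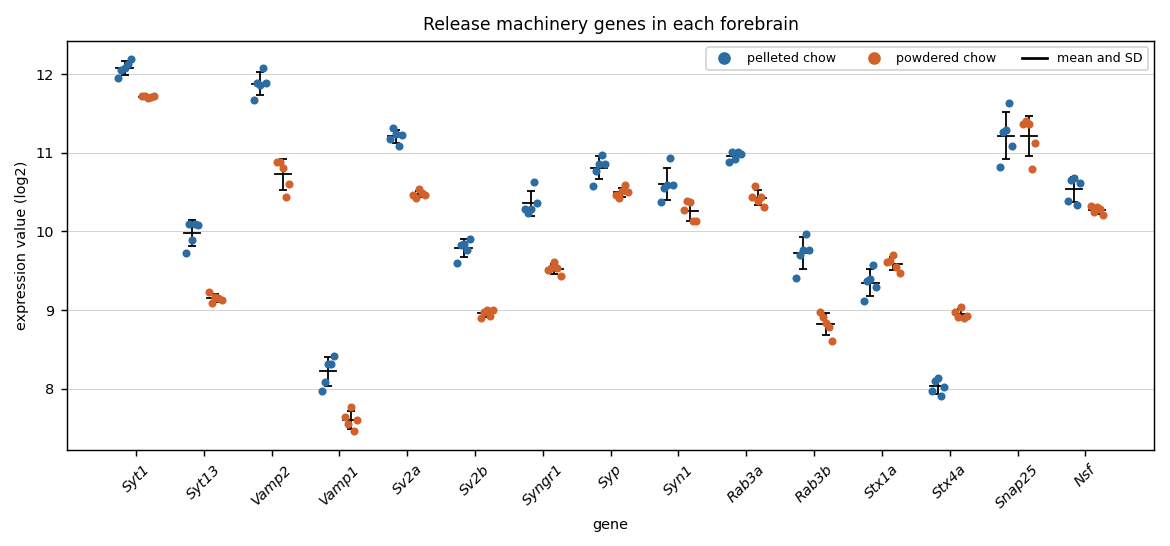
Log2 signal in each of the 10 arrays for the 15 genes given array by array; points are single arrays on pelleted (blue) and powdered chow (orange), and the black marks are the mean and SD of 5 arrays. Vamp2, Sv2a, Sv2b, Syngr1, Syt13 and Rab3b separate by diet with powdered chow lower, Stx4a separates with powdered chow higher, and Snap25 overlaps.

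On the target membrane, 5 of the 14 syntaxins were upregulated (35.7%, against 21.2% of all probe sets), with a median difference of 0.12. None was called lower, against 21.8% of all probe sets (Stx8 was called lower in 8 of 19 alternatives and Stx5a in 2). Stx1a encodes a syntaxin of neuronal exocytosis. Stx1a gave 9.11, 9.37, 9.40, 9.57 and 9.30 on pelleted chow and 9.61, 9.63, 9.70, 9.55 and 9.47 on powdered chow. Pelleted 11 reached into the powdered range, and the rise of 0.24 (SE 0.08) passed at a limma adjusted p = 0.0250 but lost its call when pelleted 15, powdered 88 or powdered 108 was left out, at an adjusted p = 0.0564, 0.0527 and 0.0530.

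Stx4a (syntaxin 4), a plasma membrane syntaxin of most cell types known for insulin-driven glucose transporter delivery, was the sole member upregulated at the stricter limits. It gave 7.97, 8.10, 8.14, 7.91 and 8.02 on pelleted chow and 8.98, 8.91, 9.04, 8.90 and 8.92 on powdered chow. Each diet held within a narrow band, well apart from the other. The rise was 0.92 (SE 0.06), or 1.89-fold (limma adjusted p = 1.24e-07). Stx2 rose by 0.19 (adjusted p = 0.0312) but lost its call when pelleted 11 or 15 or powdered 87, 88 or 115 was left out. Stx3, Stx11 and Stx19 differed by 0.14, 0.02 and 0.13 without passing. Stx19 was the only member whose mean lay under the lower quartile of all probe set means.

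Of the 8 syntaxins of endosomes, Golgi and endoplasmic reticulum, 2 rose (25%, near the 21.2% of all probe sets) and 6 were not called. Stx18, a SNARE of the endoplasmic reticulum, gave 8.30 to 8.46 on pelleted chow and 8.58 to 8.85 on powdered chow, a rise of 0.35 (limma adjusted p = 4.20e-04). Stx7, a SNARE of late endosomes, rose by 0.15 (adjusted p = 0.0394) and kept its call in only 2 of the 10 fits that left out a single array, those without pelleted 09 or 11. The other 6 (Stx5a, Stx6, Stx8, Stx12, Stx16 and Stx17) had differences between -0.17 and 0.12. Stx8 (-0.14) was called lower in the methods' t-test, under quantile and median scaling, with either filter on dim probe sets, with array quality weights and without pelleted 11 or powdered 111. Stx5a (-0.17) was called lower with array quality weights and without pelleted 11.

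Snap25, the other neuronal SNARE of the target membrane, gave the widest spread within a diet of the genes described array by array. Its signal was 10.82, 11.26, 11.29, 11.63 and 11.09 on pelleted chow and 11.37, 11.40, 11.37, 10.80 and 11.12 on powdered chow. The ranges lay on top of each other, with pelleted 05 and powdered 111 lowest and pelleted 11 highest. The difference was -0.01, with a 95% confidence interval of -0.32 to 0.30 (limma adjusted p = 0.975), which also allows a modest change in either direction. Of the relatives, Snap23 and Snap29, which serve fusion in most cell types, differed by 0.05 and 0.08 without passing. Snap47 fell by 0.24 (adjusted p = 0.00362), with 10.76 to 10.99 on pelleted chow and 10.60 to 10.73 on powdered chow.

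To compare members of a complex or a family directly, the difference between 2 genes was taken within each array and its change tested by an exact two-sided permutation test over all 252 assignments of the 10 arrays, where the smallest p possible is 0.00794. The 18 pairs were chosen after the values were seen, and p-values were adjusted over them. An adjusted p under 0.05 was reached by 16 of the 18. The adjustment does not correct for that choice, and no other pairs were tested, so the count does not describe pairs of members in general. Vamp2 fell relative to 2 of its partners in the neuronal complex, by 1.39 against Stx1a (SE 0.07) and by 1.14 against Snap25 (SE 0.08). Both had the smallest p possible (adjusted p = 0.0119). In both pairs, the 5 powdered arrays lay below the 5 pelleted arrays. Vamp2 fell by 0.61 (SE 0.12) relative to Vamp3 at the same adjusted p, whereas the changes of Vamp1 and Vamp3 did not differ beyond their error (-0.07, SE 0.11, adjusted p = 0.500 in the exact test).

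**Figure D3:**
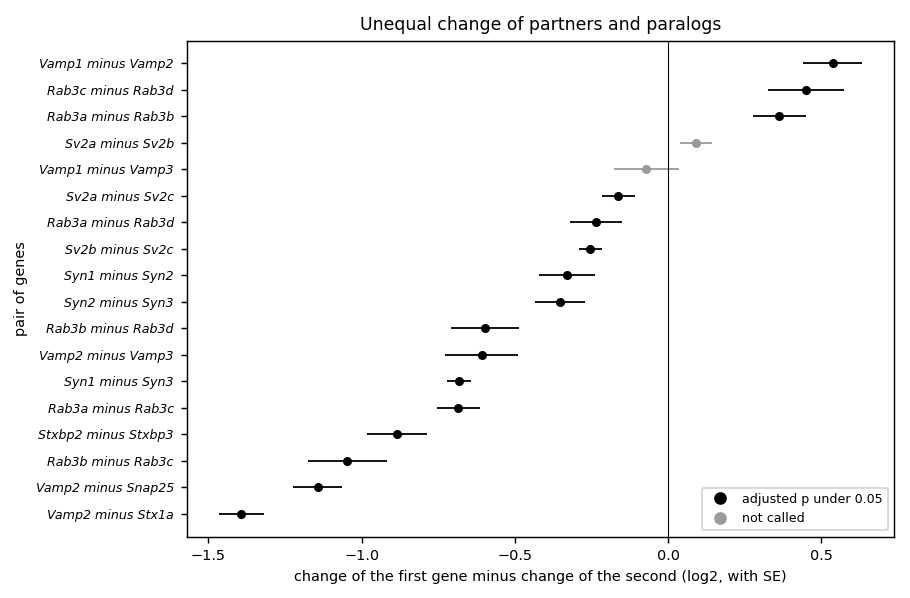
Change of the first gene minus change of the second (x axis, log2, powdered minus pelleted chow) for the 18 pairs of members, with the SE as a bar; black points passed the exact permutation test at an adjusted p under 0.05 and grey points did not. The pairs of Vamp2 with Stx1a and Snap25 lie at -1.39 and -1.14, and the 2 grey pairs are Sv2a minus Sv2b and Vamp1 minus Vamp3.

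Of the 17 synaptotagmins, 8 were downregulated (47.1%, against 21.8% of all probe sets) and none was upregulated (against 21.2%). Their median difference was -0.11. Syt1, the calcium sensor of fast release in forebrain neurons, gave 11.95, 12.06, 12.08, 12.13 and 12.19 on pelleted chow and 11.72, 11.72, 11.70, 11.71 and 11.72 on powdered chow. The powdered arrays were almost identical and all below the pelleted ones. Syt1 fell by 0.37 (SE 0.05), or 1.29-fold (limma adjusted p = 9.92e-05).

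Syt13, a synaptotagmin that does not bind calcium, had the largest change of the family. It gave 9.73, 10.10, 9.89, 10.10 and 10.08 on pelleted chow and 9.23, 9.09, 9.17, 9.15 and 9.13 on powdered chow, without overlap. It fell by 0.83 (SE 0.07), or 1.77-fold (limma adjusted p = 1.86e-06). Syt17, Syt5 and Syt6 fell by 0.50, 0.48 and 0.38, and Syt3, Syt16 and Syt11 fell by 0.23, 0.22 and 0.16. These last 3 were less stable, since Syt3 lost its call without pelleted 09, powdered 88 or powdered 115, Syt16 without pelleted 07, 09 or 15 or powdered 88, and Syt11 without pelleted 15. The other fast sensors of release did not pass, with -0.11 for Syt2 and -0.03 for Syt9, and neither did Syt7, a sensor of slow release, at 0.09. Syt4 differed by -0.03, and the remaining 5 (Syt8, Syt10, Syt12, Syt14 and Syt15) differed by -0.04 to 0.11. Syt2, Syt8, Syt12 and Syt15 were dim, with means under the median of all probe set means.

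Of the 8 genes for proteins that sit in the vesicle membrane, 6 were downregulated (75%, against 21.8% of all probe sets). None was upregulated (against 21.2%), and the median difference was -0.44. All 3 SV2 genes, which encode transporter-like glycoproteins of the vesicle and among which SV2A is the binding site of the drug levetiracetam, were downregulated. Sv2a gave 11.18, 11.32, 11.24, 11.09 and 11.23 on pelleted chow and 10.47, 10.43, 10.54, 10.49 and 10.47 on powdered chow. The diets were set apart by a gap wider than the spread within either. Sv2a fell by 0.74 (SE 0.05), or 1.67-fold (limma adjusted p = 4.35e-07).

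Sv2b gave 9.60, 9.83, 9.84, 9.76 and 9.90 on pelleted chow and 8.90, 8.97, 9.00, 8.93 and 9.00 on powdered chow. It fell by 0.83 (SE 0.06), or 1.77-fold (limma adjusted p = 4.56e-07), again without overlap. Sv2c gave 8.13 to 8.42 and 7.65 to 7.78, and fell by 0.57 (limma adjusted p = 6.79e-06). Sv2c fell less than Sv2b (adjusted p = 0.0119, exact test). The changes of Sv2a and Sv2b differed by 0.09 (SE 0.05), which did not pass the exact test (adjusted p = 0.143) but did without pelleted 05 (0.0420). Sv2c also fell less than Sv2a (adjusted p = 0.0286, exact test), a call that was lost without powdered 87 (0.0667), 111 (0.0625) or 115 (0.0762) and without pelleted 05 and 07 together (0.0804).

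Syngr1 (synaptogyrin 1), a membrane-spanning vesicle protein related to synaptophysin, gave 10.28, 10.23, 10.29, 10.63 and 10.36 on pelleted chow and 9.51, 9.53, 9.61, 9.53 and 9.44 on powdered chow. The diets did not overlap, and pelleted 11 stood above the other pelleted arrays. Syngr1 fell by 0.83 (SE 0.08), or 1.78-fold (limma adjusted p = 1.83e-06). Syp (synaptophysin), which binds synaptobrevin on the vesicle, gave 10.58, 10.77, 10.86, 10.97 and 10.86 on pelleted chow and 10.47, 10.43, 10.51, 10.59 and 10.50 on powdered chow. Pelleted 05 lay just below the highest powdered array, and Syp fell by 0.31 (SE 0.07, limma adjusted p = 0.00309). Syngr2, the synaptogyrin of cells outside the nervous system, fell by 0.30 (limma adjusted p = 0.0132). Neither Syngr3 nor Syngr4 was called, with differences of -0.16 and 0.02.

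The synapsins, phosphoproteins that tether vesicles in the reserve pool, split in direction. Syn1 gave 10.38, 10.55, 10.59, 10.94 and 10.59 on pelleted chow and 10.27, 10.39, 10.37, 10.13 and 10.13 on powdered chow. Pelleted 05 fell within the powdered range, and Syn1 fell by 0.36 (SE 0.10, limma adjusted p = 0.00805). Syn3, the synapsin expressed early in immature neurons, gave 10.34 to 10.81 on pelleted chow and 10.69 to 10.90 on powdered chow, and rose by 0.33 (SE 0.08, limma adjusted p = 0.00583). Syn2 was not called, with a difference of -0.03 (95% confidence interval -0.16 to 0.11). Within arrays, Syn1 fell by 0.68 (SE 0.04) relative to Syn3 (adjusted p = 0.0119, exact permutation test).

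Rab3 GTPases ride on vesicles and link them to the active zone through RIM proteins. Of the 4, 3 were downregulated (75%, against 21.8% of all probe sets). Rab3a gave 10.88, 11.01, 10.92, 11.01 and 10.99 on pelleted chow and 10.44, 10.58, 10.39, 10.44 and 10.31 on powdered chow. It fell by 0.53 (SE 0.06), or 1.45-fold, without overlap (limma adjusted p = 1.06e-05). Rab3b gave 9.41, 9.70, 9.77, 9.97 and 9.76 on pelleted chow and 8.98, 8.91, 8.83, 8.79 and 8.61 on powdered chow. It also separated the diets, and it fell by 0.90 (SE 0.10), or 1.86-fold (limma adjusted p = 8.38e-06). Rab3d, a form found largely in secretory cells, fell by 0.30 (limma adjusted p = 0.00640). Rab3c, also a synaptic vesicle form, gave 10.41 to 10.68 on pelleted chow and 10.68 to 10.74 on powdered chow, a difference of 0.15 that did not pass (95% confidence interval 0.02 to 0.28, adjusted p = 0.0529). Rab3c was called higher in 6 of 19 alternatives, namely the methods' t-test, the trend and robust prior, cyclic loess, both filters on dim probe sets and the fit without pelleted 07. Within arrays, Rab3a and Rab3b fell relative to Rab3c (-0.68, SE 0.07, and -1.05, SE 0.13, adjusted p = 0.0119 for both, exact permutation test).

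Genes that act on the SNAREs changed in both directions. Of 6 syntaxin-binding genes, 3 were downregulated (50%, against 21.8% of all probe sets) and 2 upregulated (33.3%, against 21.2%). Stxbp2, a chaperone of syntaxins known from blood cell granules and epithelia, fell by 0.35, from 9.39 to 9.54 on pelleted chow to 9.00 to 9.16 on powdered chow (limma adjusted p = 1.57e-04). Stxbp3 (Munc18c), the partner of syntaxin 4, gave 7.02 to 7.23 on pelleted chow and 7.51 to 7.82 on powdered chow, and it rose by 0.53 (SE 0.07, limma adjusted p = 3.95e-05). The diets did not overlap for either gene, and the change of Stxbp2 lay below that of Stxbp3 (-0.88, SE 0.10, adjusted p = 0.0119, exact permutation test). Stxbp4 (synip), another protein that binds syntaxin 4, rose by 0.42 (limma adjusted p = 4.26e-04).

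Stxbp6 (amisyn) and Stxbp5l (tomosyn-2), which carry SNARE motifs that compete with VAMP for syntaxin complexes, fell by 0.27 and 0.19 (limma adjusted p = 0.00558 and 0.0347), and Stxbp5 (tomosyn) differed by 0.11 without passing. Stxbp5l kept its call in only 2 of the 10 fits that left out a single array, those without pelleted 05 or powdered 111. Nsf gave 10.39, 10.66, 10.68, 10.34 and 10.62 on pelleted chow and 10.33, 10.25, 10.31, 10.28 and 10.21 on powdered chow. The lowest pelleted array stood only just above the highest powdered one, and Nsf fell by 0.26 (SE 0.07, limma adjusted p = 0.0108). Snap91 (AP180), the clathrin adaptor that retrieves synaptobrevin after fusion, gave 11.32 to 11.52 on pelleted chow and 10.85 to 10.93 on powdered chow. It fell by 0.55 (SE 0.05), or 1.47-fold (limma adjusted p = 2.26e-06).

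Members were also grouped by where they act, in lists set with earlier results of these data known. Snap91 was counted with transmitter release, and Syt7 was in neither group. Of the 23 listed for transmitter release, 14 were downregulated (60.9%) and 2 (Stx1a and Syn3) were upregulated (8.70%), against 21.8% and 21.2% of all probe sets. These 23 members had a median difference of -0.31. Their mean log2 signal ran from 9.92 to 10.20 in pelleted arrays and from 9.71 to 9.82 in powdered arrays. Of the 23 listed for traffic in most cell types, 6 were downregulated and 6 upregulated, with a median of 0.01. That is 26.1% each way, near the 21.8% and 21.2% of all probe sets. The list also held Rab3d, Stxbp2 and Syngr2, all downregulated, which are described above for narrower sets of cells. Of the 18 in neither group, 8 were downregulated (44.4%) and none upregulated.

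**Figure D4:**
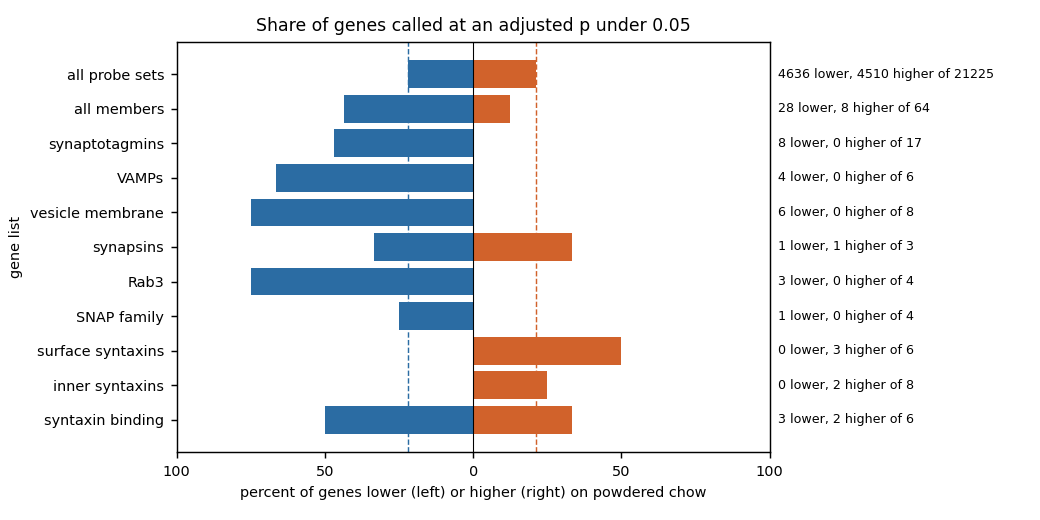
Percent of genes lower (bars to the left) and higher (bars to the right) on powdered chow at an adjusted p under 0.05, by role, with the counts at the right and dashed lines at the shares of all probe sets. Vesicle membrane proteins (6 of 8), Rab3 GTPases (3 of 4) and VAMPs (4 of 6) had the most downregulated genes for their size, and none of the 14 syntaxins was called lower in this fit (Stx8 was in 8 of 19 alternatives and Stx5a in 2).

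Marker genes of the cells that a forebrain holds were measured on the same arrays. Of 12 neuronal markers 5 were higher, 1 was lower and 6 were not called on powdered chow, with a median difference of 0.08. Over all probe sets, 21.2% were higher and 21.8% were lower. The neuronal markers' mean log2 signal was 11.26 to 11.43 on pelleted chow and 11.46 to 11.51 on powdered chow. Of 10 radial glia markers 1 was higher and 4 were lower (9.99 to 10.12 against 9.88 to 10.01), and of 7 intermediate progenitor markers 4 were higher and 1 was lower (8.54 to 8.74 against 8.90 to 9.00). Erythroid markers averaged 7.65 and 7.51 in pelleted 05 and 07, 6.94 to 7.04 in the other pelleted arrays and 7.51 to 7.70 in powdered arrays, with 2 of 7 called higher and Epb42 and Hbb-bh1 under the lower quartile of brightness. Without pelleted 05 and 07, 28 members were downregulated and 6 upregulated, against 20.2% and 19.6% of all probe sets in that fit. Endothelial (3 of 8 higher, 2 lower), microglial (2 of 11 higher, 4 lower) and choroid plexus markers (1 of 6 higher, 3 lower) had ranges that overlapped between diets. The part of cell composition in the members' changes was not tested.

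Other genes of vesicle release and recycling did not follow a single direction. Over the 94 of 96 listed genes that were analysed, 28 were downregulated (29.8%) and 26 upregulated (27.7%), with a median difference of -0.03. Over all probe sets, 21.8% were downregulated and 21.2% upregulated. Of 22 active zone and priming genes, 10 were upregulated (45.5%) and 3 downregulated (13.6%). Rims2, a scaffold that binds Rab3, rose by 0.66 (limma adjusted p = 3.62e-06), and Ppfia1 (liprin alpha 1) rose by 0.65. Rimbp2, which ties calcium channels to RIM, fell by 0.64 (limma adjusted p = 2.38e-06), and the calcium sensor gene Doc2a fell by 0.61.

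Of 21 other vesicle proteins and regulators, 9 were downregulated (42.9%, against 21.8% of all probe sets) and 3 upregulated (14.3%, against 21.2%). Sncb (beta-synuclein) and Scamp4, a secretory carrier membrane protein, fell by 0.67 and 0.95 (limma adjusted p = 2.81e-06 and 8.28e-06), while Rab3ip and Rab3gap1, regulators of Rab GTPases, rose by 0.57 and 0.59. These had the lowest p in each direction. Endocytosis genes fell in 10 of 20 cases (50%) and rose in 2 (10%). The largest change was in Ap2m1 (-2.04), the cargo-binding subunit of the AP-2 adaptor. The clathrin light chain gene Cltb fell by 0.84, whereas Dnm2 (dynamin 2) and Itsn2 (intersectin 2) rose by 0.25 and 0.23. Among 7 complexin and SNAP genes, which clamp and disassemble SNARE bundles, Napg and Cplx2 rose by 0.36 and 0.29, and Napa and Cplx1 fell by 0.35 and 0.28.

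Of 7 transmitter-loading genes, Slc32a1 (GABA and glycine) and Slc17a6 (glutamate) rose by 0.20 and 0.23, and Slc18a3 (acetylcholine) fell by 0.50. Slc17a6 passed narrowly (limma adjusted p = 0.0465). Slc17a7, also for glutamate, differed by -0.22 without passing (limma adjusted p = 0.0655), although its diets did not overlap. Of 17 further SNARE and SM genes of inner membranes, 7 were upregulated (41.2%, against 21.2% of all probe sets) and 3 downregulated (17.6%, against 21.8%). Scfd1 and Vps45, SM proteins of the endoplasmic reticulum to Golgi step and of endosomes, rose by 0.70 and 0.56, and the SNARE genes Use1 and Gosr2 fell by 0.59 and 0.45.

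**Figure D5:**
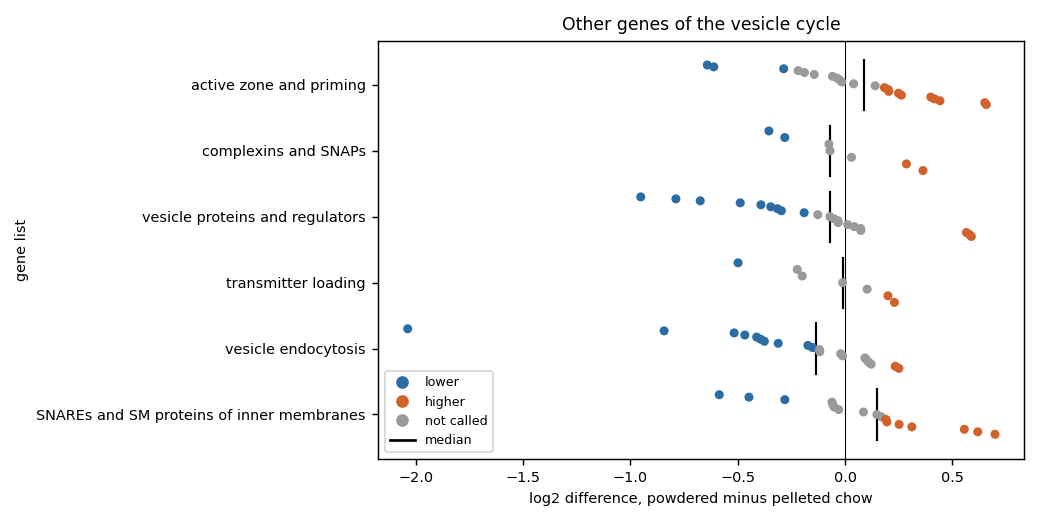
Log2 differences, powdered minus pelleted chow, for the 94 analysed genes of related pathways by list; each point is 1 gene, coloured by its call at an adjusted p under 0.05, and the black marks are medians. Active zone genes lie more often to the right of 0 (10 upregulated, 3 downregulated) and endocytosis genes more often to the left (2 upregulated, 10 downregulated), with Ap2m1 at -2.04 farthest out. Over all probe sets, 21.2% were upregulated and 21.8% downregulated.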

How the data were processed

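Forebrain RNA of 10 wild-type embryos, 5 per maternal diet, was measured on 1 array each. The authors normalized the arrays by robust multichip averaging (RMA, version not given in the sources used here) with the MBNI custom probe definitions, version 15, and deposited log2 values for 21225 probe sets, which were used as they stand. Symbols came from the platform annotation, updated through RefSeq (20239 probe sets named), and some genes are not reported here. Diets were taken from the sample titles. Powdered minus pelleted chow was fitted with limma 3.58.1 (lmFit and eBayes, R 4.3.3) over all probe sets, two-sided, with Benjamini-Hochberg adjustment. The number of arrays limits the precision, with a median SE of 0.0695 over the members. Pairs of members were tested with an exact permutation test (Python 3.11.15, numpy 2.4.6, pandas 2.3.3), and figures were drawn with matplotlib 3.10.9. The fit was tested on simulated data in which 21025 of the 21225 probe sets were unchanged. It called 28 of 50 changes of 1.3-fold and 46 of 50 of 1.6-fold, so small changes can be missed. In the measured data 43.1% of probe sets were called, so these shares need not carry over.

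The members, the gene lists and the tests were chosen with earlier results of these data known. Values are given in every array for 10 core release genes and for all members past the stricter limits. Differences are given for the 2 members with the lowest p in each direction of each role or pathway list. Other members given with a value were picked with those values in view. The alternatives tried were the t-test of the methods, an intensity trend with a robust prior, quantile, median and cyclic loess scaling, filters on dim probe sets, array quality weights, and the omission of single arrays or of pelleted 05 and 07 together. All upstream sequences are from RefSeq.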

Additional observations from a re-analysis of the deposited data

How the results depend on the processing

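Over 19 alternatives, the number of downregulated members stayed within 1.5 times of the reported 28. Leaving out single arrays gave 25 to 29 downregulated and 5 to 8 upregulated members, and 14 to 17 of the 18 pairs. At the stricter limits, it gave 6 to 8 downregulated and 1 upregulated. Leaving out pelleted 05 and 07 together gave 10 downregulated and 1 upregulated at the stricter limits. Among 25 named members, all but Snap25, Stx1a and Stx7 kept their direction and call under every alternative that tested them. The call meant here is at an adjusted p under 0.05, not at the stricter limits. Stxbp3 was not tested where probe sets under the median were left out. Snap25 changed sign, at 0.0315 with array quality weights and between -0.106 and 0.0958 with single arrays left out. Stx1a lost its call in the methods' t-test (adjusted p = 0.0508) and without pelleted 05 and 07 (0.108), and Stx7 lost its call without those arrays (0.148). The causes were not tested. Quantile, median and cyclic loess scaling moved the median over all probe sets from -0.0243 to -0.0173, -0.0319 and -0.00743. No paired analysis was possible because the animal numbers of the diets do not repeat. Stx19 was too dim for a small difference to be read. Of the 64 members, 54 were bright enough to be tested where probe sets under the median were left out.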
